A study of Homo sapiens with 32 samples.

Results

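The HOX genes described here were the 39 GENCODE 44 protein-coding genes whose symbol is HOXA, HOXB, HOXC or HOXD followed by a digit, out of 19970 protein-coding genes on chromosomes 1 to 22 and X. They lie in 4 clusters on hg38. The HOXA cluster holds 11 genes at chr7:27092993-27200091, all on the minus strand, and the HOXB cluster holds 10 genes at chr17:48528526-48728750, also on the minus strand. The HOXC cluster holds 9 genes at chr12:53938831-54056030 and the HOXD cluster 9 genes at chr2:176092721-176190907, both on the plus strand. HEK293T cells, a human embryonic kidney line, of the single clone ZD29 were used, and in every group, the untreated ones included, ZNF143 carried a degron tag with an HA epitope. Chromatin immunoprecipitation with sequencing was done on untreated cells and on cells given 50 nM dTAGV-1, a compound that brings about degradation of the tagged protein, for 30 min. Antibodies against SP1, NRF1 and YY1 gave 4 untreated and 4 treated samples each, the HA antibody against tagged ZNF143 gave 2 and 2, and a mock precipitation gave 2 and 2, 32 samples in 10 groups.

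The data used were 4 lists of peak summits, 1 per antibody, as deposited by the authors. A summit is the single base at which a peak is highest, and each has a score, −log10 transformed, of the peak caller's p or q, so that a higher score means a clearer peak. The lists hold no value per sample or per treatment. Untreated and treated cells were therefore not compared, there is no replicate error behind a score, and no statistical test was made. Scores were compared only within a list, and a rank is given as the top percent of that list. On these chromosomes the SP1 list held 126181 summits, the YY1 list 106578, the NRF1 list 39180 and the ZNF143 list 16165, and the lowest score in each was just above 2.00. Read depth per sample is unknown from these lists. A summit that is missing from a list means that no signal passed that list's cutoff.

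HOX genes encode homeodomain transcription factors that give cells of the embryo their position along the head-to-tail axis, and they keep their expression in many adult cells. Genes at the 3′ end of a cluster (low numbers) act in anterior tissue and genes at the 5′ end (high numbers) in posterior tissue, and genes with the same number in different clusters are paralogues. Polycomb group proteins keep the clusters silent, and Trithorax group proteins active, through cell division. SP1 is a zinc finger activator that binds GC boxes, NRF1 binds a palindromic GC-rich element in many housekeeping promoters, ZNF143 is a zinc finger protein of promoters and small nuclear RNA genes, and YY1 is a zinc finger protein related to Drosophila Pleiohomeotic, a DNA-binding member of the Polycomb group.

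Within 500 bp of the 5′ end of the gene record, 33 of the 39 HOX genes (84.6%) had an SP1 summit and 32 (82.1%) had a YY1 summit. NRF1 summits were found at 18 genes (46.2%) and ZNF143 summits at 15 (38.5%). Over all protein-coding genes the shares were 59.1% for SP1, 57.8% for YY1, 48.3% for NRF1 and 31.7% for ZNF143. The SP1 and YY1 shares of HOX genes were thus above the share of all genes, while the NRF1 share was close to it. Both statements depend on how summits are counted. With only the highest summit of each peak, SP1 was at 28.2% of HOX genes against 52.4% of all genes and YY1 at 33.3% against 49.7%, so that the direction turned. With each list held to its 16165 highest summits, NRF1 was at 23.1% of HOX genes against 40.2%. The 95% Wilson intervals, which cover counting error only, ran from 70.3% to 92.8% for SP1, from 67.3% to 91.02% for YY1, from 31.6% to 61.4% for NRF1 and from 24.9% to 54.1% for ZNF143. Neighbouring genes of a cluster can share peaks, and the starts of HOXB3 and HOXB6, 80 bp apart, share their summits.

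The same shares were set beside genes with starts of like base composition. Of the 39 HOX starts, 26 were CpG-rich, meaning that the 1001 bp around the start had over 50% GC and a ratio of observed to expected CpG above 0.6. Over all CpG-rich protein-coding genes the shares were 86.4% for SP1, 85.9% for YY1, 74.6% for NRF1 and 49.6% for ZNF143. Among the 26 CpG-rich HOX genes, 21 had an SP1 summit, 20 a YY1 summit, 14 an NRF1 summit and 11 a ZNF143 summit, so that each share lay below that of CpG-rich genes at large, with NRF1 (53.8%) the farthest below. The 13 HOX genes whose starts are not CpG-rich had higher shares than other genes of that class. SP1 and YY1 summits were each present at 12 of these 13, and ZNF143 and NRF1 summits at 4 each. Over all protein-coding genes that are not CpG-rich the shares were 21.5% for SP1, 19.1% for YY1, 11.9% for NRF1 and 6.85% for ZNF143. The gene of the 13 with no summit was HOXB1. The 13 are not all separate promoters, since HOXB3 and HOXB6 share their summits. HOXA6, HOXA7, HOXA9, HOXA10, HOXB3, HOXC4, HOXC6 and HOXD10 have a canonical transcript start over 500 bp from the record start. CpG content was measured at the record start alone.

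**Figure D1:**
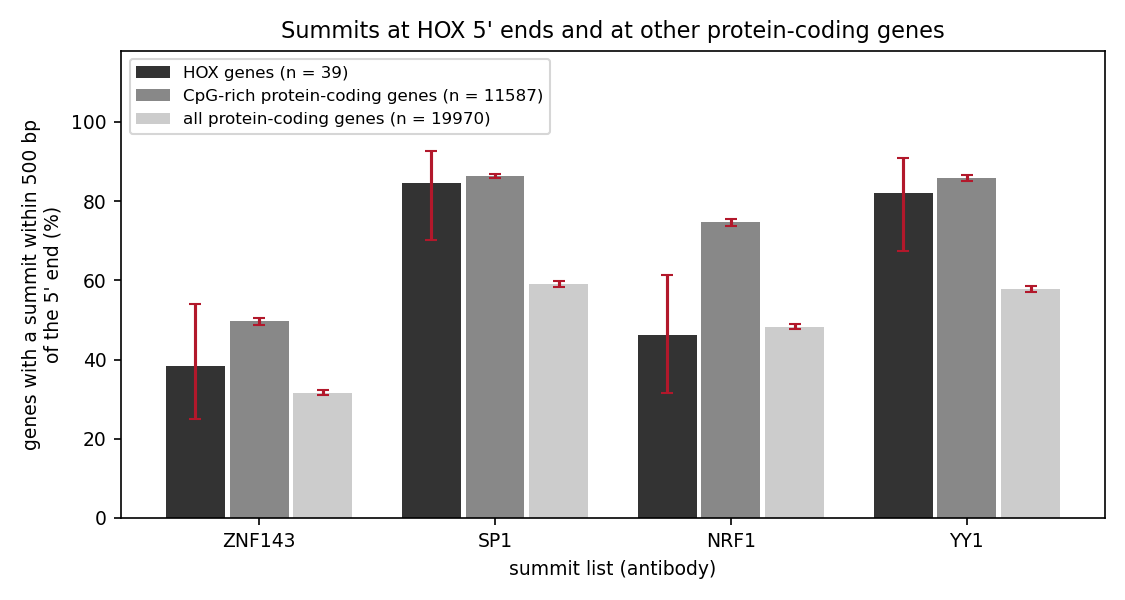
Share of genes (%, y axis) with a summit within 500 bp of the 5′ end in each of the 4 lists (x axis), for the 39 HOX genes, the 11587 CpG-rich and all 19970 protein-coding genes; red lines are 95% Wilson intervals. HOX genes reached 84.6% for SP1 and 82.1% for YY1, close to the CpG-rich genes, and 46.2% for NRF1, below the 74.6% of CpG-rich genes. The HOX bars include genes that are not CpG-rich. Among the 26 CpG-rich HOX genes, not drawn, the shares were 80.8% for SP1, 76.9% for YY1 and 53.8% for NRF1.

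Summits were not confined to the starts. Over the 4 cluster spans, 523 kb in all from the first to the last base of each cluster's HOX genes, there were 378 YY1, 374 SP1, 102 NRF1 and 72 ZNF143 summits. Per 100 kb this was 20.6 times the mean over the genome for YY1, 17.2 times for SP1, 15.1 times for NRF1 and 25.8 times for ZNF143. The ZNF143 summits were mostly low in their list, and 14 of the 72 were in its top 50%. Counted by summits, the HOXA cluster was the densest for each of the 4 factors. It held 129 YY1, 110 SP1, 30.8 NRF1 and 29.9 ZNF143 summits per 100 kb, against means of 3.52, 4.16, 1.29 and 0.533 over the genome. The HOXC cluster came next for SP1 (100.7 per 100 kb), YY1 (78.5) and NRF1 (29.0). The HOXB cluster, the longest at 200 kb, had 55.9 YY1, 52.9 SP1, 14.5 NRF1 and 10.99 ZNF143 summits per 100 kb. The HOXD cluster was the sparsest, with 36.7 YY1, 32.6 SP1, 6.11 NRF1 and 6.11 ZNF143 summits per 100 kb.

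Gene-dense DNA in general carries more summits, so the spans were set beside the 584 fixed 100-kb windows of the genome with 5 or more protein-coding starts. The median of these windows was 10 summits for SP1 and for YY1, 6 for NRF1 and 3 for ZNF143. No such window was as dense in SP1 or in ZNF143 summits as the HOXA span, and 0.171% of them were as dense in YY1 or NRF1, windows over the HOX clusters themselves included. For NRF1 in the HOXD cluster 48.1% of the gene-rich windows were as dense, so the NRF1 density there was ordinary for gene-rich DNA. The SP1 and YY1 densities of HOXD were reached by 2.91% and 1.88% of these windows.

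**Figure D2:**
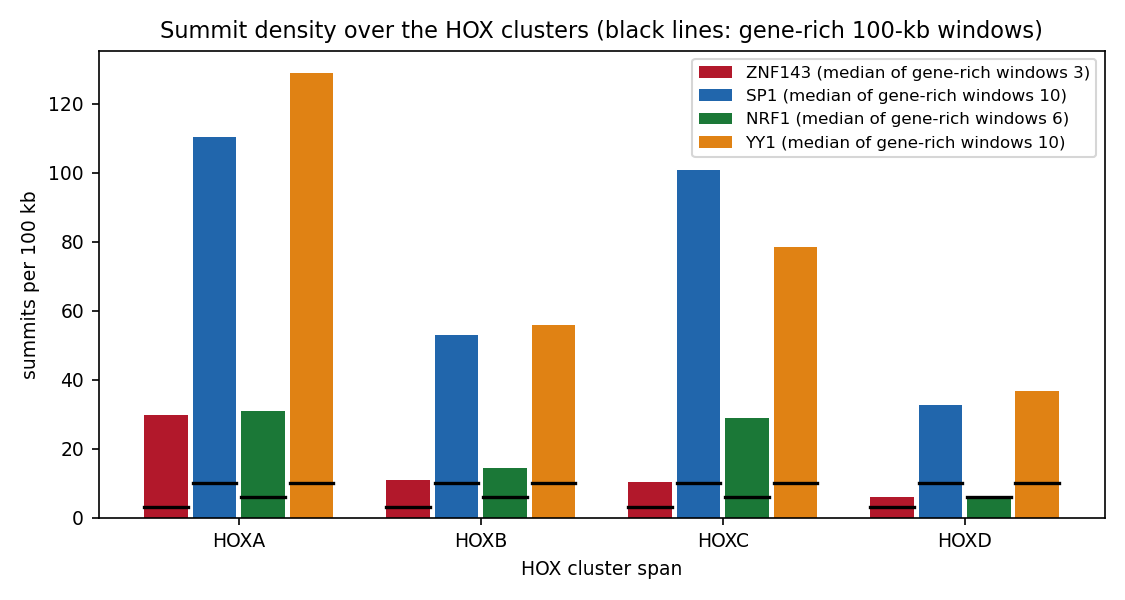
Summits per 100 kb (y axis) over each HOX cluster span (x axis) for the 4 lists, with a black line at the median of the 584 gene-rich 100-kb windows. HOXA and HOXC stood highest for SP1 (110 and 100.7) and YY1 (129 and 78.5), and the NRF1 density of HOXD (6.11) was at the gene-rich median of 6.

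Much of this density came from summits packed into very long peaks. The SP1 list names 78 summits in a single peak over the HOXA cluster, from chr7:27126183 to chr7:27188864, and no other of its 79306 peaks holds as many. From the first to the last summit this peak ran over 62.7 kb and took in the starts of 8 genes, HOXA3 to HOXA11 in the order of their numbers. In the whole SP1 list a peak had 1.59 summits on average and 70.5% of peaks had a single summit. YY1 showed the same stretch as a pair of peaks, 1 with 48 summits over 33.9 kb (HOXA7, HOXA9, HOXA10 and HOXA11) and 1 with 43 summits over 28.0 kb (HOXA3, HOXA4, HOXA5 and HOXA6). These are among the 3 YY1 peaks, of 64684, with the most summits. The HOXB peaks with the most summits, over the HOXB3 introns and the HOXB4 start, held 21 SP1 summits in 13.7 kb and 18 YY1 summits in 12.4 kb. In HOXC the most were 15 SP1 summits, in a peak of 10.2 kb at the HOXC9 start, and 14 YY1 summits, in a peak of 7.14 kb between HOXC12 and HOXC11. In HOXD the peak over the HOXD10 and HOXD11 starts held 9 summits in the SP1 list and 9 in the YY1 list. ZNF143 and NRF1 peaks in the clusters held at most 4 summits each. When each peak was counted once by its highest summit, the spans held 66 SP1 and 75 YY1 summits. Counted as peaks with a summit in the span, HOXA was not the densest for these factors. For SP1 there were 8.40 peaks per 100 kb in HOXA, the lowest of the clusters, 12.0 in HOXB, 22.2 in HOXC and 10.2 in HOXD. For YY1 there were 13.1, 14.98, 17.9 and 11.2. For ZNF143 and NRF1 HOXA still had the most, with 21.5 and 19.6 peaks per 100 kb.

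Summits were spread unevenly within the clusters. The HOXA cluster was covered almost end to end, and its longest stretch with no summit of any list was 3.78 kb, between HOXA11 and HOXA13. HOXB had a dense part and a sparse part. The HOXB7 record takes in HOXB8 and HOXB9. From HOXB1 to the 5′ end of that record there were 83.8 SP1 and 90.4 YY1 summits per 100 kb. In the 91.2 kb between that 5′ end and HOXB13 there were 19.7 and 18.6. The longest stretch with no summit in HOXB, 23.7 kb, lay in that interval. In HOXC the longest such stretch was 8.22 kb and began at the HOXC12 start, and in HOXD it was 17.2 kb and took in the HOXD9 start. The HOXD cluster also changed along its length. All 6 of its ZNF143 summits lay in the 40 kb from HOXD13 to HOXD8, and 0 lay in the 58.2 kb beyond the end of HOXD8, where SP1 had 22.3 and YY1 29.2 summits per 100 kb against 47.5 for each from HOXD13 to HOXD8.

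**Figure D3:**
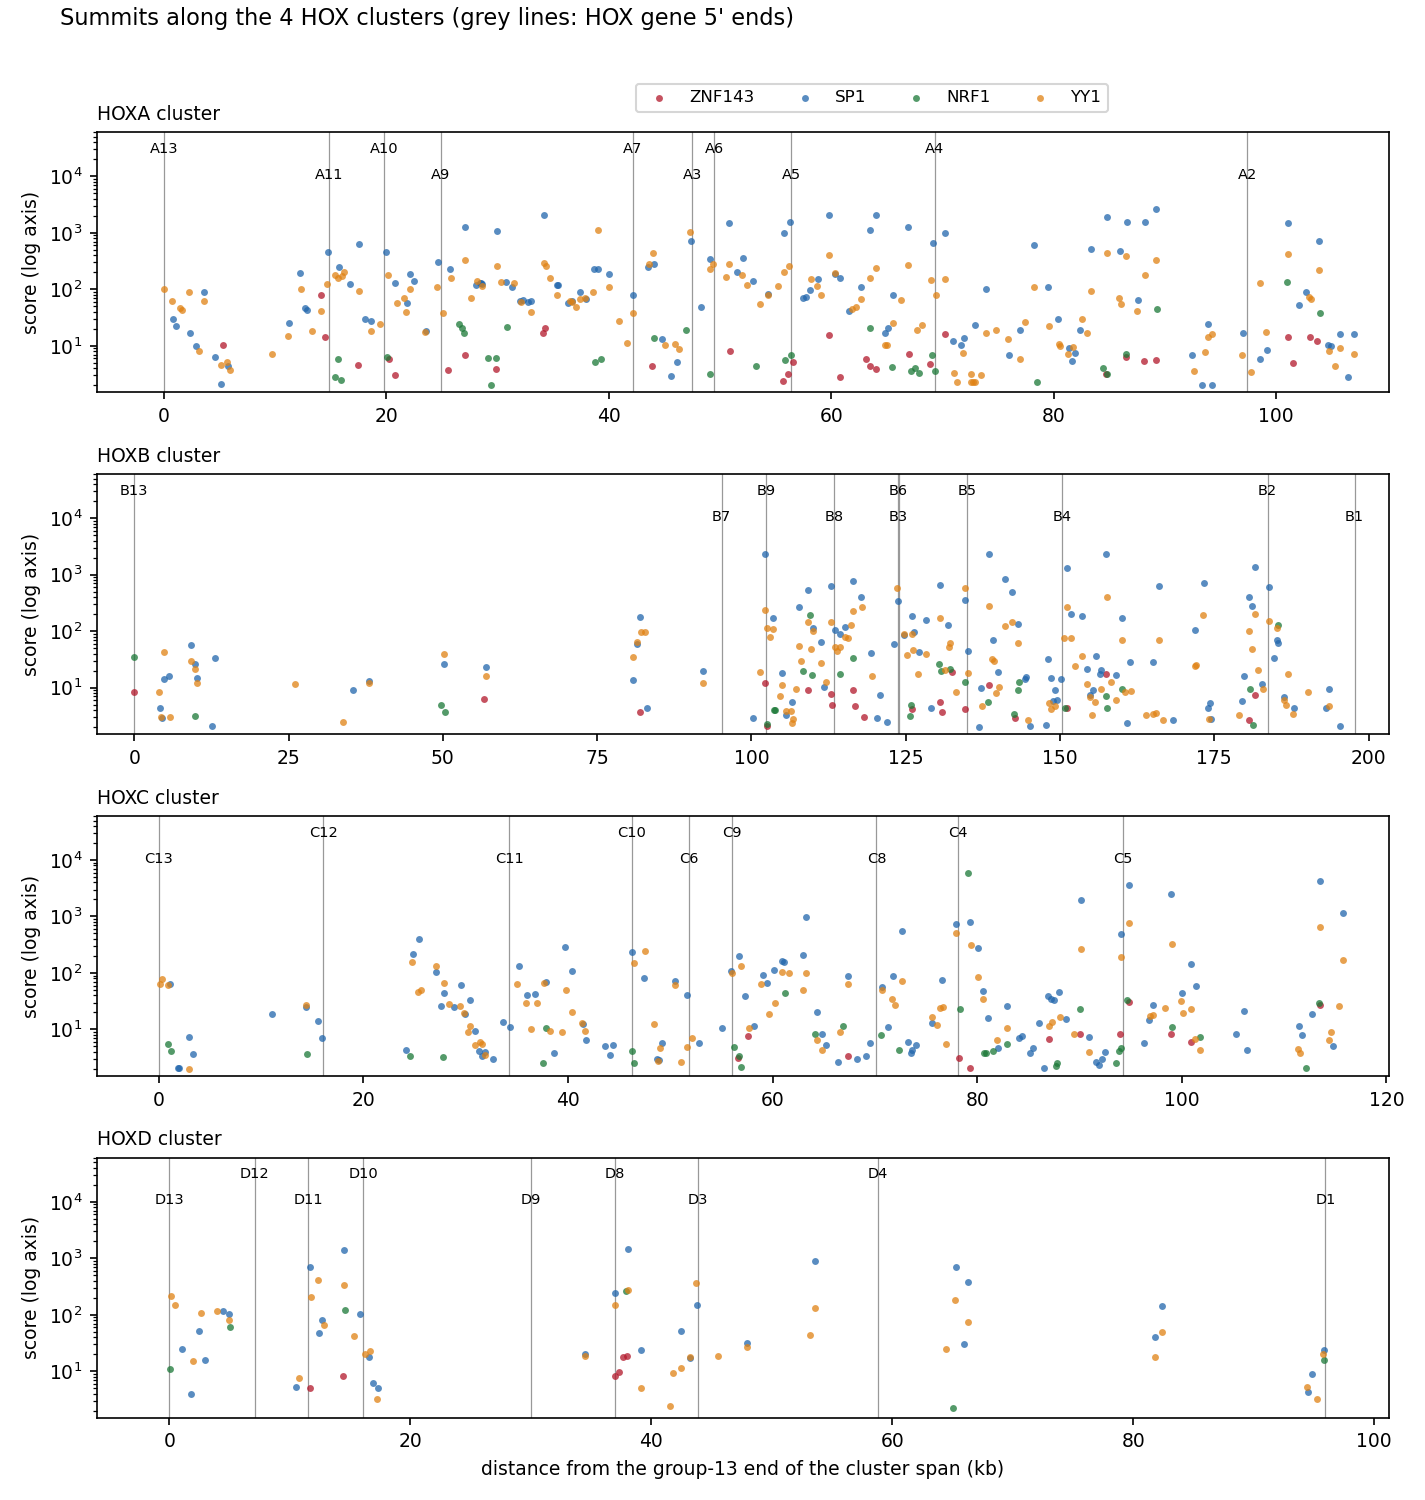
Summits along each cluster: distance from the group-13 end of the span (kb, x axis) against summit score (log y axis), coloured by list, with grey lines at the 5′ ends of the HOX genes named here. SP1 (blue) and YY1 (orange) filled HOXA. Both were sparse between HOXB13 and the 5′ end of the HOXB7 record and around HOXD9. ZNF143 (red) stayed at or below 78.8, and NRF1 (green) reached 5843 at 1 site in HOXC.

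Most SP1 and YY1 summits in the spans lay in introns or exons of HOX genes and away from the gene-record starts. Starts of other transcripts of a gene were not set apart, so some intron summits lie at such starts. The SP1 summits of 2286 and 2511, for example, lay 63 bp upstream of a HOXB3 and 45 bp upstream of a HOXC4 transcript start. Of the 374 SP1 summits in the spans, 175 (46.8%) lay in HOX introns, 67 in HOX exons, 30 within 500 bp of a HOX 5′ end and 44 within 500 bp of the 5′ end of another gene. For YY1 the counts were 169 of 378 in introns (44.7%), 74 in exons, 42 at HOX 5′ ends and 39 at other 5′ ends. ZNF143 had 36 of 72 in introns and NRF1 44 of 102. Long HOX gene records, such as HOXA3 and HOXB3, take up much of the spans. The share of span bases in each class is not given here, so these counts show no preference for introns or exons. SP1 and YY1 summits at HOX 5′ ends had higher scores than those in introns, with medians of 278 and 47.7 for SP1 and of 113 and 29.1 for YY1. For NRF1 the medians were close, 6.61 and 5.52, and for ZNF143 the median at 5′ ends was slightly lower, 5.42 against 5.68. The top of the SP1 list in each cluster lay away from the gene-record starts.

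The highest SP1 summit of the clusters, with a score of 4269 (top 0.127% of the SP1 list), lay in an intron of the HOXC4 record, 1508 bp upstream of the nearest annotated HOXC4 transcript start. A YY1 summit of 659 lay 8 bp from it, a ZNF143 summit of 27.4 lay 25 bp from it and an NRF1 summit of 29.4 lay 56 bp from it, so all 4 lists met within a short stretch. The next SP1 summit, 3618 (top 0.199%), lay in the HOXC5 intron, 260 bp upstream of the MIR615 hairpin, with ZNF143 (30.4) 13 bp and YY1 (765) 47 bp away. In HOXA the highest SP1 summit, 2635, lay in a HOXA3 intron, with YY1 17 bp and ZNF143 31 bp away. In HOXB the SP1 summit of 2335 lay in a HOXB3 intron, 2801 bp downstream of an annotated HOXB3 start, with ZNF143 (17.2) 4 bp and YY1 (396) 8 bp away. In HOXD the highest SP1 summit, 1467, lay in a HOXD8 exon with YY1 (278) 16 bp away, and the next, 1425, lay in an intron of the HOXD11 record 106 bp upstream of another HOXD11 transcript start. The tight spacing of 3 or 4 lists at these summits is a description of where the signals peak and not of which protein touches the DNA.

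The bases at 6 SP1 summits are shown, none of which holds the GC box GGGGCGG used here as the SP1 consensus. The first is the highest of the clusters, and the other 5 were picked because they hold another string, TCGTAAA, so how many of the 6 have it says nothing of its frequency. The summits of 2635 in HOXA, 2511 in HOXC, 2297 and 2286 in HOXB, 2113 in HOXA and 1425 in HOXD, which also score high, do not hold it. Each sequence is the plus strand of hg38 from 50 bp before to 50 bp after the summit, 5′ to 3′, and capitals mark TCGTAAA or, on the other strand, its reverse complement.
HOXC4 intron, SP1 4269, chr12:54052277-54052377: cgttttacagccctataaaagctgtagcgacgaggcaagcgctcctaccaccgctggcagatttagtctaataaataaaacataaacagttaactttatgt
HOXC5 intron upstream of MIR615, SP1 3618, chr12:54033640-54033740: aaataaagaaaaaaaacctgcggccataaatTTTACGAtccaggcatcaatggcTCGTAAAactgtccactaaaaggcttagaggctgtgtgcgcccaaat
HOXB3 intron, SP1 2335, chr17:48571172-48571272: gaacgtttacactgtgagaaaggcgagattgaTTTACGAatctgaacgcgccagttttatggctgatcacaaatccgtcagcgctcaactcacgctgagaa
HOXA3 intron, SP1 2029, chr7:27140277-27140377: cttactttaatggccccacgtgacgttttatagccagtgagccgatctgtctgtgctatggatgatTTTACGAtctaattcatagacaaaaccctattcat
HOXA5 start, SP1 1549, chr7:27143759-27143859: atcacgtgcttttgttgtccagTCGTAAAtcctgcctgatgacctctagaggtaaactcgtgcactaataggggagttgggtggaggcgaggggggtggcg
HOXD3 intron, SP1 882, chr2:176146221-176146321: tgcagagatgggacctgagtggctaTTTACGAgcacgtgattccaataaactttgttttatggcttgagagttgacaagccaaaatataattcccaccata

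The string TCGTAAA was picked after the sequences of the highest SP1 summits in HOXA, HOXB and HOXC had been read, so its counts describe these sites and support nothing further. As background, TCGTAAA is the core of sequences bound by CDX and posterior HOX proteins. It was found within 50 bp of 16 of the 73 SP1 summits of the HOX spans that ranked in the top 10% of the SP1 list (21.9%). Of the other 301 SP1 summits in the spans, 6 had it (1.99%). In the whole SP1 list the share was 0.747%, in its top 10% it was 1.04%, and of the 5174 consecutive 101-bp windows that tile the spans 0.676% held it. By cluster the counts among the top-ranked SP1 summits were 5 of 32 in HOXA, 3 of 20 in HOXB, 4 of 14 in HOXC and 4 of 7 in HOXD. The 4 HOXD summits had scores of 1467 in the HOXD8 exon, 882 and 688 in the introns of the HOXD3 record and 697 near the HOXD11 start. Among YY1 summits of the spans in the top 10% of the YY1 list, 8 of 71 held the string (11.3%), against 0.572% of that list's top 10%. ZNF143 summits of the spans held it in 6 of 72 cases and NRF1 summits in 1 of 102.

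NRF1 had few high scores in the clusters. The highest, 5843 (top 2.85% of the NRF1 list), lay in the HOXC4 intron 1026 bp downstream of the start of the HOXC4 record. The nearest SP1 summit was 131 bp away and the nearest YY1 summit 225 bp away. The next were 832 just upstream of HOXC13 and so outside the span, 269 in a HOXD8 exon and 190 in an intron of the HOXB7 record. Of the 102 NRF1 summits in the spans, 1 ranked in the top 10% of its list. Sequences of 3 NRF1 sites in HOXC, HOXD and HOXB are shown, with capitals marking the consensus GCGCANGCG or its reverse complement where present.
HOXC4 intron, NRF1 5843, chr12:54017907-54018007: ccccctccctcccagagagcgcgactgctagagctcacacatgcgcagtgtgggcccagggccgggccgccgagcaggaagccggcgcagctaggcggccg
HOXD8 exon, NRF1 269, chr2:176130532-176130632: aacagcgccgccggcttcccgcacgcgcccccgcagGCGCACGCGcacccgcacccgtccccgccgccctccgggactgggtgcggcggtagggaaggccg
HOXB2 exon, NRF1 128, chr17:48543304-48543404: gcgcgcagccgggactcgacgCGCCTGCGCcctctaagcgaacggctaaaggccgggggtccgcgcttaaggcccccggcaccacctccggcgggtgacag
The window at HOXC4, the highest, came within 1 base of the consensus without matching it, whereas HOXD8 and HOXB2 held a full match. The higher HOXB summit of 190, not shown, also came within 1 base without matching. Among all NRF1 summits of the spans 3 of 102 held a full match, so the sites shown are not typical.

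YY1 had its highest summits at HOXA. The top summit, 1126, lay between HOXA7 and HOXA9, 3134 bp upstream of the HOXA7 start, with an SP1 summit 26 bp away. In the same region, at chr7:27161138-27161149, lay 1 of the 3 copies of the CTCF consensus in all 4 spans. This copy was within 50 bp of an SP1 summit of 225 but not within 50 bp of a YY1 summit. The next, 1015, lay 191 bp upstream of HOXA3. A YY1 consensus, AANATGGCG on either strand, was within 50 bp of this summit, which is shown with its consensus matches in capitals, the second being the SP1 consensus GGGGCGG on the other strand.
HOXA3 start, YY1 1015, chr7:27152724-27152824: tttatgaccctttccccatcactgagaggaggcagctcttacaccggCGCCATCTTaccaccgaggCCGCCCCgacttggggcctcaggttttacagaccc
It had the highest YY1 score of the HOX starts. The next, the summit of 573 shared by the HOXB3 and HOXB6 starts, also had a YY1 consensus within 50 bp. The window at HOXB5, with a YY1 summit of 570, held no full match.

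ZNF143 scores were low throughout the clusters. The highest of its 72 summits, 78.8 (top 23.6% of its list), lay 768 bp upstream of HOXA11 with a YY1 summit 5 bp away, and 0 of the 72 ranked in the top 10%. The median score of ZNF143 summits in the HOXA span was 5.67, against 12.96 in the whole list. The site is shown as the highest ZNF143 signal of any HOX cluster. It has no match to the consensus CCCANNATG and so no capitals.
HOXA11 upstream region, ZNF143 78.8, chr7:27185950-27186050: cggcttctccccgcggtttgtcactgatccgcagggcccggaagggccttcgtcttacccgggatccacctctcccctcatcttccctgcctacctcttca

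Exact copies of a factor's consensus lay near few of its summits. Within 50 bp of their own summits, the ZNF143 consensus was found at 4 of 72 span summits, against 6.63% of that whole list, and the SP1 consensus at 12 of 374, against 5.29%. For NRF1 the count was 3 of 102, against 7.26%, and for YY1 it was 5 of 378, against 2.52%. Among the 101-bp windows that tile the spans, 1.51% held the ZNF143, 3.19% the SP1, 0.290% the NRF1 and 0.329% the YY1 consensus. The SP1 share at SP1 summits (3.21%) was close to that of the tiled DNA, while the ZNF143, NRF1 and YY1 shares were above it. In those counts the whole string had to lie within 50 bp of the summit. Read from the copies the rule was looser, and the nearest base of a copy had to lie within 50 bp. By this looser rule 9 of the 19 YY1 consensus copies in the spans had a YY1 summit. The counts were 16 of 195 for SP1 copies with an SP1 summit, 3 of 15 for NRF1 and 5 of 89 for ZNF143. They cannot be set beside the shares at summits or in tiled windows. In the 1001 bp around the starts, 22 HOX genes held the SP1 consensus, 6 the ZNF143, 5 the YY1 and 2 the NRF1 consensus, and 0 the CTCF consensus. The shares over all protein-coding genes were 55.7%, 14.2%, 7.54%, 14.6% and 1.04%. A strict string leaves out weaker forms of a site.

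At the gene starts, all HOXA genes named in this paragraph had both an SP1 and a YY1 summit within 500 bp. HOXA5, which acts in lung and thoracic patterning, had the highest SP1 score of the cluster's starts, 1549, with YY1 at 254, NRF1 at 7.03 and ZNF143 at 5.11. HOXA3, needed for the thymus and parathyroid, had SP1 at 715 and YY1 at 1015. Both starts were CpG-rich and in the top 10% of both the SP1 and the YY1 list. HOXA4 had SP1 at 662, YY1 at 144, NRF1 at 6.89 and ZNF143 at 4.77. HOXA10, a gene of the uterus and of blood progenitors, had SP1 at 452, YY1 at 179, NRF1 at 6.34 and ZNF143 at 5.73. HOXA11 had SP1 at 453 and YY1 at 125 and the highest ZNF143 score of any HOX start, 14.3. HOXA4, HOXA5 and HOXA10 were thus in all 4 lists. HOXA6 (SP1 344, YY1 284, NRF1 3.13) and HOXA13, a gene of digits and of the genital tract (SP1 210, YY1 119, NRF1 28.4), were in 3. HOXA2, HOXA3, HOXA7 and HOXA9 had SP1 and YY1 summits and no others. HOXA9 had SP1 at 311 and YY1 at 111, and HOXA7 had SP1 at 80.3 and YY1 at 38.0. HOXA2, a gene of the second pharyngeal arch, had the lowest scores of the cluster in both lists, 16.7 and 6.85.

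In the HOXB cluster 8 of 10 genes had SP1 and YY1 summits at the start and 4 had ZNF143 and NRF1 summits. HOXB9 had the highest SP1 score of all HOX starts, 2297 (top 0.495%), 242 bp upstream, with YY1 at 240, ZNF143 at 12.2 and NRF1 at 2.25. HOXB5 had SP1 at 360, YY1 at 570, NRF1 at 12.4 and ZNF143 at 4.23. HOXB13, known for its role in the prostate, had SP1 at 275, YY1 at 41.6, NRF1 at 35.1 and ZNF143 at 8.36. These are the 3 HOXB genes in all 4 lists. HOXB2 had SP1 at 608 and YY1 at 154, both downstream of the start, and the HOXB3 and HOXB6 starts shared an SP1 summit of 344 and a YY1 summit of 573. HOXB8 had SP1 at 103, YY1 at 52.8 and ZNF143 at 4.97. HOXB4, a regulator of blood stem cells, was weak in SP1, at 14.05, with YY1 at 74.8 and NRF1 at 4.44. HOXB1, a hindbrain gene, had no summit of any list, and neither had HOXB7 at the start of its gene record.

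In the HOXC cluster 8 of 9 genes had an SP1 summit, 7 a YY1, 6 an NRF1 and 3 a ZNF143 summit. HOXC4 had SP1 at 745, YY1 at 510, NRF1 at 23.5 and ZNF143 at 3.18. HOXC13, a gene of hair and nail, had SP1 at 659, YY1 at 77.4, ZNF143 at 6.27 and NRF1 at 832, the 1 NRF1 score of a HOX start in the top 10% of the NRF1 list. HOXC5 had SP1 at 494, YY1 at 190, NRF1 at 33.0 and ZNF143 at 8.36. HOXC10 (SP1 231, YY1 151, NRF1 4.09) and HOXC9, a gene of thoracic motor neurons (SP1 108, YY1 98.9, NRF1 4.92), had 3 lists each. HOXC8 had YY1 at 49.5 and NRF1 at 7.91 and was the 1 gene of this cluster without SP1. HOXC6 had SP1 at 41.0 and YY1 at 6.96. HOXC11 and HOXC12 were the 2 HOX genes in a single list, with SP1 at 11.2 and 6.96.

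In the HOXD cluster 6 of 9 genes had SP1 and YY1 summits, 3 had ZNF143 and 2 had NRF1. HOXD13, the digit gene whose mutation causes synpolydactyly, had SP1 at 770, YY1 at 215, NRF1 at 11.04 and ZNF143 at 4.97 and was the 1 gene of the cluster in all 4 lists. HOXD11, a forearm gene, had SP1 at 697, YY1 at 210 and ZNF143 at 4.97. HOXD8 had SP1 at 246, YY1 at 151 and ZNF143 at 9.83, and HOXD3 had SP1 at 149 and YY1 at 363. HOXD10 (SP1 104, YY1 20.1) and HOXD1 (SP1 23.8, YY1 20.1, NRF1 16.1) were lower. HOXD4, HOXD9 and HOXD12 had no summit of any list within 500 bp, although each of these starts was CpG-rich.

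**Figure D4:**
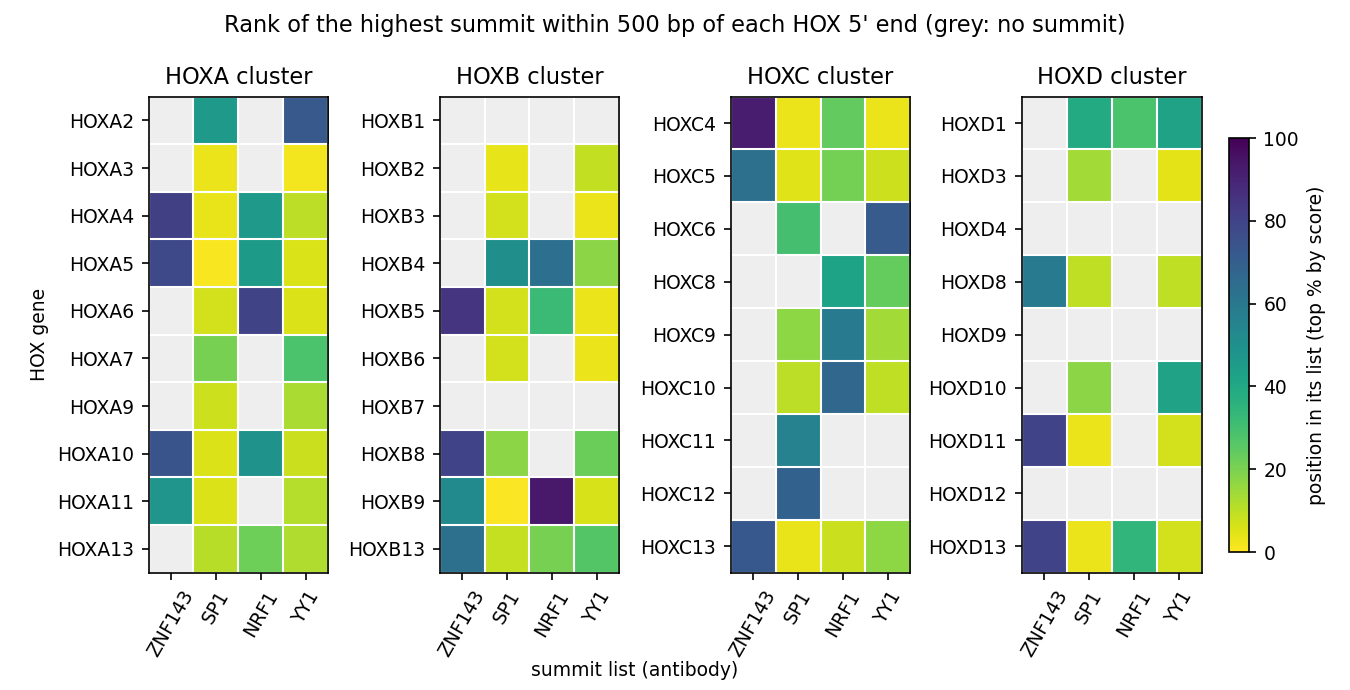
For each HOX gene named here (rows, by cluster and number) and list (columns), the rank of the highest summit within 500 bp of the 5′ end as the top percent of its list (colour; grey where there is no summit). The SP1 and YY1 columns are mostly yellow (low percent, high rank), while ZNF143 ranks lay between the top 47.9% and 92.1%, and HOXB1, HOXB7, HOXD4, HOXD9 and HOXD12 are grey in all 4 columns.

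Over all 4 clusters, 11 HOX genes (28.2%) were in all 4 lists, close to the 28.1% of all protein-coding genes, and 5 (12.8%) were in none, against 37.3% of all protein-coding genes and 9.87% of CpG-rich ones. Another 11 HOX genes (28.2%) were in exactly 2 lists, against 9.48% of all protein-coding genes. In 10 of those 11 genes the pair was SP1 and YY1, and in HOXC8 it was NRF1 and YY1. All 3 genes of paralogue group 5 were in all 4 lists. All 4 genes of group 13 had SP1, NRF1 and YY1, and 3 of them ZNF143. These groups are small, and none of these differences was tested.

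Scores at the starts differed between the lists in the same way as over the spans. For SP1 the median of the highest summit was 344 at HOX starts against 197 at all protein-coding starts with an SP1 summit, and 21 of 33 HOX genes (63.6%, 95% Wilson interval 46.6% to 77.8%) ranked in the top 10% of the list against 45.1%. For YY1 the medians were 151 and 139 and the shares 18 of 32 (56.3%) against 49.3%, an interval of 39.3% to 71.8% that takes in the share of all genes. For NRF1 the medians were 9.47 and 48.0, with 1 of 18 HOX genes in the top 10% against 31.2%. For ZNF143 the medians were 5.73 and 23.6, and 0 of 15 HOX genes were in the top 10% against 20.4%. HOX ZNF143 scores ran from 3.18 to 14.3, whereas all protein-coding starts reached 65042. With the lower-scoring 50% of each list left out, 1 HOX gene, HOXA11, still had a ZNF143 summit (2.56%, against 19.3% of all protein-coding genes), and 30 still had an SP1 and 30 a YY1 summit.

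SP1 and YY1 summits at HOX starts lay mostly upstream. The highest SP1 summit was upstream of the 5′ end at 27 of 33 HOX genes (81.8%, 95% Wilson interval 65.6% to 91.4%) against 63.2% of all protein-coding genes, with a median of -128 bp against -38 bp. The highest YY1 summit was upstream at 21 of 32 HOX genes (65.6%, 48.3% to 79.6%) against 38.3%, with a median of -153 bp against 60 bp downstream. In HOXA the YY1 summit was upstream at 10 of 11 genes, against 5 of 8 in HOXB, 3 of 7 in HOXC and 3 of 6 in HOXD. ZNF143 had a median of -132 bp against -19 bp, and NRF1 of 26.5 bp against -29 bp. Where a gene had both, the SP1 and YY1 summits lay a median of 95 bp apart, within 100 bp at 17 of 31 genes.

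**Figure D5:**
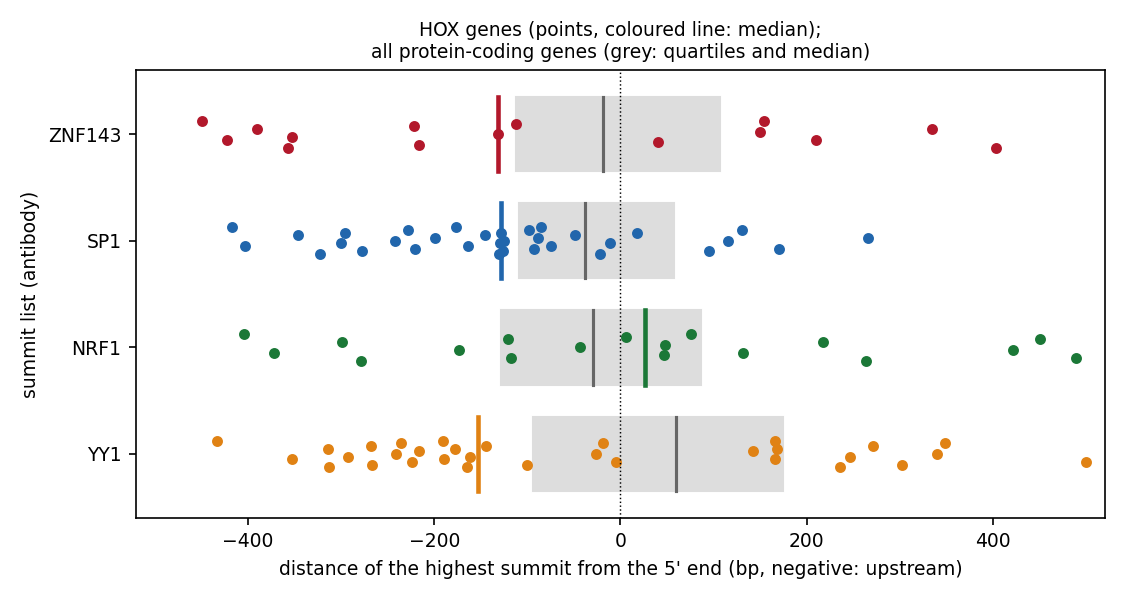
Distance of the highest summit from the 5′ end (bp, x axis, negative upstream) for each HOX gene (points) in each list (rows), with the HOX median as a coloured line and the quartiles and median of all protein-coding genes in grey. Most SP1 (27 of 33) and YY1 (21 of 32) points lie upstream, and the YY1 median of -153 bp is left of the grey box.

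The gene record's 5′ end is the start of its most upstream transcript, and 12 HOX genes have a canonical transcript that starts over 500 bp inside it. At the canonical start HOXB7 had an SP1 summit of 407 and a YY1 summit of 271, so its absence from all lists holds for the gene-record start alone. HOXA9, a gene of blood progenitors that is overexpressed in many leukaemias, had SP1 at 2029, YY1 at 295 and ZNF143 at 20.8 at the canonical start, against SP1 at 311 and no ZNF143 at the record start. HOXB3 had SP1 at 2286 and HOXD11 SP1 at 1425 and NRF1 at 120. In the other direction, HOXC6 and HOXD3 had no SP1 summit at the canonical start, HOXD10 had no summit of any list there, and HOXC4 fell from 745 to 5.00 in SP1. Counted over canonical starts, 31 HOX genes had an SP1, 32 a YY1, 19 an NRF1 and 18 a ZNF143 summit, against 64.5%, 63.1%, 52.8% and 34.8% of all protein-coding genes. With any annotated transcript start, NRF1 rose to 29 of 39 genes (74.4%), against 57.6%.

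Summits of the lists lay close to each other in the clusters. Within 100 bp, 54.0% of the SP1 summits of the spans had a YY1 summit, against 40.5% of all SP1 summits, and 53.4% of the YY1 summits had an SP1 summit, against 47.9%. ZNF143 summits had a YY1 summit nearby in 66.7% of cases against 51.0% in the whole list, and an SP1 summit in 55.6% against 53.8%. For NRF1 the shares were 38.2% against 30.6% with YY1 and 36.3% against 34.3% with SP1. A summit of any other list lay within 100 bp of 75% of ZNF143, 58.7% of YY1, 57.2% of SP1 and 52.9% of NRF1 summits, against 71.9%, 53.7%, 46.1% and 48.1% of the whole lists. The windows were not matched for summit density, which was highest in HOXA, and its part in these shares was not tested.

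The clusters also hold noncoding genes. Of 56 genes of other biotypes with a 5′ end in a span, 42 had an SP1, 41 a YY1, 14 an NRF1 and 11 a ZNF143 summit within 500 bp. These shares were 75%, 73.2%, 25% and 19.6%, against 59.1%, 57.8%, 48.3% and 31.7% of all protein-coding genes. The genes compared were not matched for the summit density of the spans. Some of these records have the summits of a HOX start, as ENSG00000273433 has the HOXA3 SP1 summit of 715. HOTAIR, the antisense RNA of HOXC, had SP1 at 40.9 and YY1 at 29.9, and HOTTIP, at the 5′ end of HOXA, had SP1 at 22.4 and YY1 at 46.1. The miRNA genes differed among themselves. MIR615 was in all 4 lists, MIR196B had SP1 at 135, YY1 at 138 and NRF1 at 21.9, MIR10A had SP1 at 14.6 and YY1 at 4.71, MIR196A2 had SP1 at 5.76, and MIR10B and MIR196A1 had no summit. The 5′ end of a miRNA record is that of the hairpin and not of the primary transcript. The mature miRNAs, from RefSeq on GRCh38.p14, are shown because the miR-196 genes of 3 clusters share a seed (bases 2 to 8, in capitals) while their summits differed.
hsa-miR-196a-5p: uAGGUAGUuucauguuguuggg
hsa-miR-196b-5p: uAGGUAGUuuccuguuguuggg
hsa-miR-10a-5p: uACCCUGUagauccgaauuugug
hsa-miR-615-3p: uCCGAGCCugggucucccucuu

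Genes that work with HOX proteins, or lie beside the clusters, were looked up in the same way. Of the 9 TALE homeodomain cofactors (PBX, MEIS and PKNOX genes), which bind DNA together with HOX proteins, 6 had an SP1, 5 a YY1, 4 an NRF1 and 1 a ZNF143 summit. These shares were 66.7%, 55.6%, 44.4% and 11.1%, against 59.1%, 57.8%, 48.3% and 31.7% of all protein-coding genes. The ZNF143 summit was at MEIS1, with a score of 26.5, and MEIS1 and PKNOX1 had the highest SP1 scores, 402 and 421. Of the ParaHox genes CDX1, CDX2, CDX4, GSX1, GSX2 and PDX1, relatives of the HOX genes outside the clusters, CDX2 was in all 4 lists, with SP1 at 488 and YY1 at 142, and GSX1 and PDX1 were in 3. CDX1, CDX4 and GSX2 were in none. EVX1, beside HOXA, had SP1 at 5.37 and YY1 at 4.61, and EVX2, beside HOXD, had none. Of the 11 protein-coding neighbours with a start within 200 kb of a span, 5 had a ZNF143 summit (45.5%, against 31.7% of all protein-coding genes). At SMUG1 beside HOXC it scored 8676, and at CALCOCO2 and ATP5MC1 beside HOXB 5119 and 2298, against at most 14.3 at a HOX start.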

How the data were processed

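Chromatin immunoprecipitation with sequencing was done on untreated and dTAGV-1-treated HEK293T cells, and the authors deposited 4 summit lists, 1 per antibody. Column 5 of each deposited list holds −log10 values of a p-value or q-value, judged from the values and the layout, since neither is named in the sources used here. The labels tie the ZNF143 list and the SP1 list to treated as well as untreated samples, and for NRF1 and YY1 the antibody in the list's name was used. The submitters' processing notes name cutadapt, Bowtie2, SAMtools 1.16.1, MACS3, bedtools and hg38, with no role or order. How samples were pooled is not given in the sources used here.

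Summits on chromosomes 1 to 22 and X were matched to GENCODE 44 with Python 3.11.15, NumPy 2.4.6, pandas 2.3.3 and SciPy 1.17.1. A gene counted as present in a list with 1 or more summits within 500 bp of its 5′ end, and the highest was described. Consensus strings were searched on both strands within 50 bp of a summit in hg38, and summits of other lists within 100 bp. Look-ups were tested on simulated data. The members and lists were chosen with earlier results of these data known, and TCGTAAA after sequences had been read. HOX genes are given with values for those in all 4 lists and for the highest scores per list, and away from starts the 3 highest per list and cluster. Alternatives covered the window, the start used, the list length, the top 50% of each list, the highest summit per peak, and the search distances. Mock samples were not analysed here. Some items are not reported here, and counts over the clusters include all 39 genes. No paired analysis was possible because the lists carry no value per sample.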

Additional observations from a re-analysis of the deposited data

How the results depend on the processing

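With 4 pooled lists and no value per sample, the settings were compared by counts alone, and the cause of each move was not tested. Depth per sample is unknown, so a missing summit was not detectable above the list's cutoff rather than absent. Of 68 comparisons with an alternative, 43 stayed close to the reported value. For counts, close meant a change of no more than 1.5-fold, which is a wide limit. A fall from 33 to 22 HOX genes with SP1 at the equal list length was within it. So was a fall from 374 to 253 SP1 summits in the spans with the top 50% of the list.

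Within 250 bp, 9 HOX genes had a ZNF143 summit, and with the top 50% of each list 1 had. With the highest summit of each peak, SP1 was at 11 genes (28.2%, against 52.4% of all protein-coding genes) and YY1 at 13 (33.3%, against 49.7%), which by construction drops the other summits of long peaks. NRF1 was at 29 genes with any annotated transcript start and at 9 with lists cut to 16165 summits. In the spans the top 50% left 14 ZNF143 and 48 NRF1 summits, the equal list length left 89 SP1, 40 NRF1 and 109 YY1 summits, and the highest summit per peak left 66 SP1 and 75 YY1. The share with another list nearby was 54.2% and 88.9% for ZNF143, 42.8% and 74.3% for SP1, 29.4% and 84.3% for NRF1, and 43.9% and 77.2% for YY1 at 50 bp and 250 bp. Own consensus was found at 2 ZNF143 and 2 YY1 summits within 25 bp, and at 32 SP1 and 11 YY1 summits within 100 bp.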
